A study of Mus musculus with 6 samples.

Results

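Interferon receptors, the transcription factors that act below them and the genes that interferons switch on were followed as a set of 39 mouse genes, taken by gene symbol from a table of 21959 genes. All 39 symbols were found. The cells carry the label HL-1, an atrial muscle line of the mouse, and are given as wild type; they were kept in a culture medium that contains norepinephrine. Cells of both groups underwent oxygen-glucose deprivation and reoxygenation (OGD/R), which imitates in culture the loss and return of blood flow, with 4 h of hypoxia without glucose and 24 h of reoxygenation. The OGD/R group holds 3 libraries. The OGD/R + Phillyrin group holds 3 libraries of cells given phillyrin, a lignan from Forsythia fruit, at 50 µg/mL for 8 h beforehand and for 16 h together with OGD/R. Libraries of cells without OGD/R or with a vehicle were not analysed here, so phillyrin and its solvent cannot be told apart.

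Interferons are secreted proteins that cells release when they sense viral or misplaced nucleic acid. Type I interferons bind the receptor chains IFNAR1 and IFNAR2, and interferon gamma binds IFNGR1 and IFNGR2. The kinases JAK1, JAK2 and TYK2, which sit on these receptors, phosphorylate STAT proteins. A complex that holds STAT2 and IRF9 then binds the interferon-stimulated response element (ISRE) in promoters, while STAT pairs bind the gamma-activated site (GAS). The induced genes encode proteins that block translation of foreign RNA, trap virus particles, sense nucleic acid or present antigen. In heart muscle this response is best known from viral myocarditis.

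Library totals lay between 14761317 and 22123648 counts. A level is given as CPM, the read count of a gene relative to a library size scaled by its TMM factor, unless FPKM, which is also relative to gene length, is named. An absence of counts allows up to 3 counts, which is between 0.137 and 0.209 CPM per library, for counting error only. Fewer cells of a kind and less RNA per cell cannot be told apart in such bulk libraries. Several transcripts that define atrial muscle were absent or nearly so: of 14 cardiac markers 10 stayed under 0.5 CPM in every library, with Myh6, Actn2 and Mybpc3 at 0 counts. The sum of the 14 was 152 to 155 CPM without and 182 to 198 CPM with phillyrin. The 4 that were tested were split, with 2 log2 fold changes above 0 and 2 below, and 1 was called higher. Markers of skeletal myoblasts had the highest sum of the marker lists, 1253 to 1275 CPM in OGD/R against 1188 to 1246 CPM with phillyrin. Of the 8 myoblast genes 6 were tested, with Myod1 higher and Myf5, Chrna1 and Cdh15 lower. Of 10 leukocyte markers 8 stayed under 0.5 CPM in every library, with Adgre1, Itgam, Tyrobp and Cd3e at 0 counts. Their summed level was 2.37 to 3.30 CPM in OGD/R and 3.11 to 4.56 CPM with phillyrin, nearly all of it Cd68. Siglech and Irf8, which define plasmacytoid dendritic cells, a main source of type I interferon, had 0 counts, as did the endothelial markers Kdr and Tie1. The 6 dendritic cell markers summed to 127 to 137 CPM in OGD/R and 115 to 124 CPM with phillyrin, nearly all of it Tcf4, which was called lower. The 6 endothelial markers summed to 0.811 to 1.11 CPM in OGD/R and 0.904 to 1.35 CPM with phillyrin. The 6 fibroblast markers summed to 897 to 908 CPM in OGD/R and 770 to 791 CPM with phillyrin, with Lum at 0 counts. Of these, 4 were tested and 2 called lower, while 1 of the 4 had a log2 fold change above 0. The part of these shifts in the results below was not tested.

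The set divided by level. Receptors, STAT2, most IRFs and a few effectors, among them Ifit2, Eif2ak2 and B2m, were present. Isg15, Ifit1, Ifit3, Usp18, Rsad2 and other induced genes of the set were near the detection limit. Of the 39 genes 19 stayed under 1 CPM in every library, 10 of them under 0.5 CPM, and 1, Oas2, had no count. Filtering on low counts left 26 genes for the test, and the other 13 held 20 to 60 counts together per library. With phillyrin 1 gene, Ifnar2, was higher and 1, Ifit2, was lower (edgeR quasi-likelihood test, Benjamini-Hochberg adjusted p under 0.05). In all, 31.7% of the 11658 genes tested were called, 16.0% higher and 15.6% lower. The groups of libraries did not overlap for 6 of the 26, against 43.1% of all genes tested. Precision differed between the abundant and the scarce genes. Over the 14 genes with a mean of at least 5 CPM, a level chosen after the values were seen, the standard error (SE) of the log2 fold change lay between 0.05 and 0.16, and both calls fell among them. Of all genes above that level 35.6% were called. Over the 12 tested genes below it, the SE lay between 0.19 and 0.51. None was called by edgeR, with 1, Mx1, at an unadjusted p under 0.05. DESeq2 called 0 of them, but gave no adjusted p for Irf7, Oasl2, Ifih1 and Mx1, which it could therefore not call. Among all tested genes below that level 12.2% were called.

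The count of calls moved with single libraries. Without OGD/R replicate 2 Irf2 was called higher in place of Ifnar2. Without OGD/R replicate 3 no gene of the set was called higher, and without phillyrin replicate 1 there were 3 (Ifnar2, Ifngr1 and Irf2). Without phillyrin replicate 2 Ifnar2 was not called, and Irf2 and B2m were called higher. Lower calls numbered 2 without OGD/R replicate 1, with Eif2ak2 added, and 2 without phillyrin replicate 1, with Ifi35 added. They numbered 3 without phillyrin replicate 3, with Ifnar1 and Parp9 added. Scaled by library size only, 1 gene was higher and 3 were lower, again with Ifnar1 and Eif2ak2 added. That scaling lowered the median of all genes by 0.04 on the log2 scale and changed the share of higher calls among all calls from 50.6% to 34.8%.

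**Figure D1:**
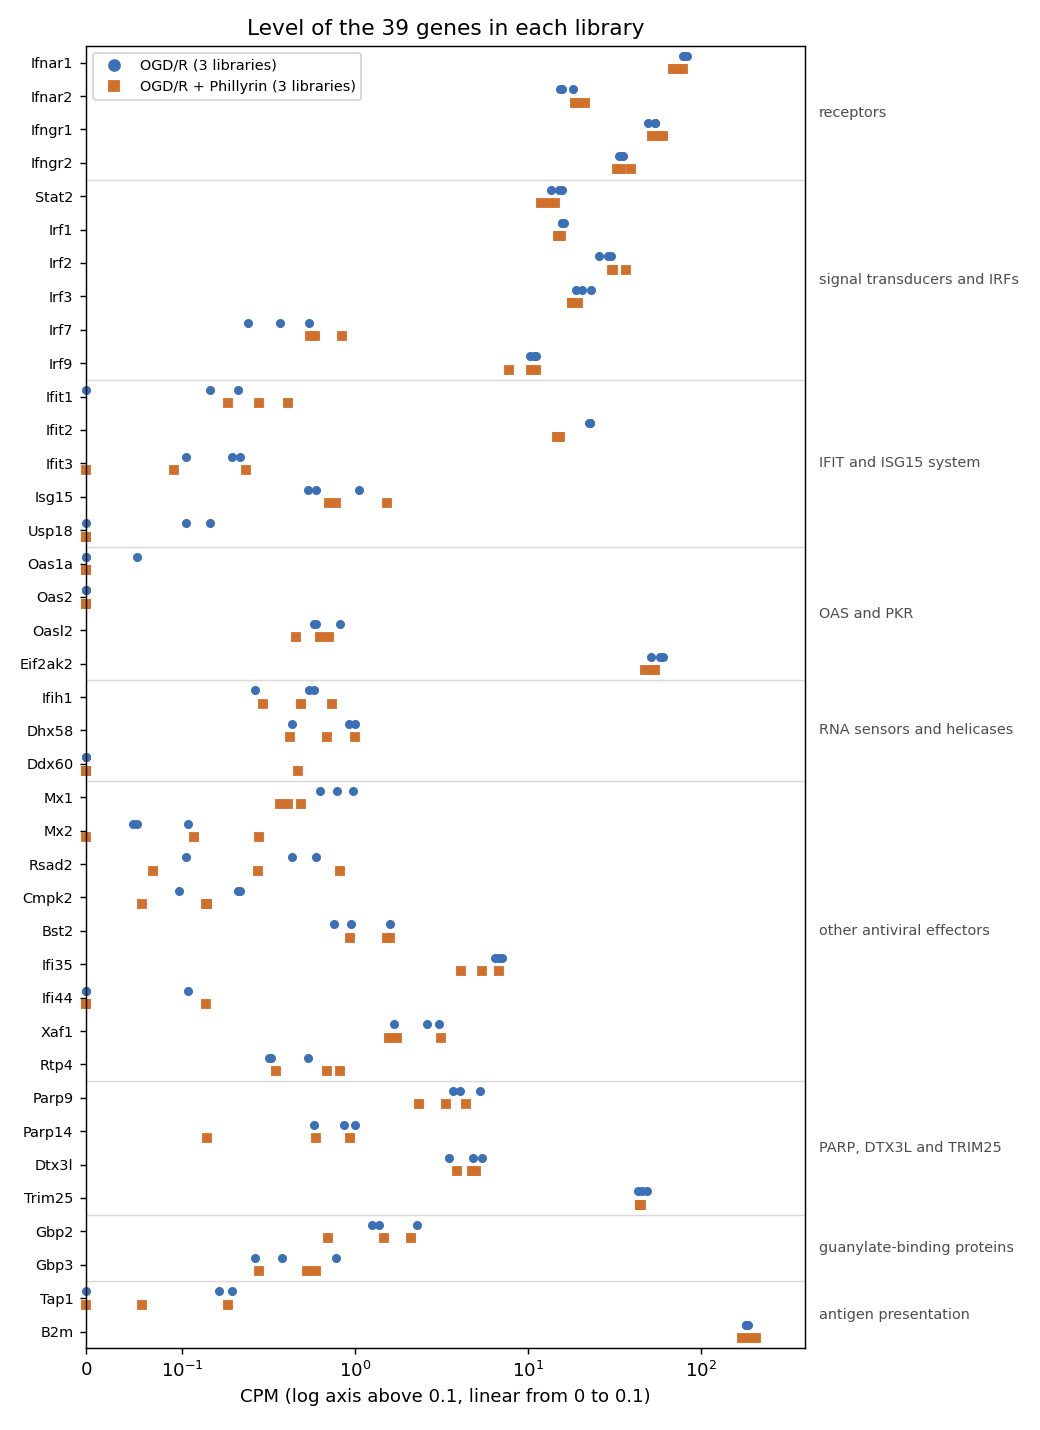
Level of each of the 39 genes in each library, on a CPM axis that is logarithmic above 0.1 and linear from 0 to 0.1; blue circles are the 3 OGD/R libraries, orange squares the 3 OGD/R + Phillyrin libraries, and genes are grouped by role. Receptors, Stat2, most IRFs, Ifit2, Eif2ak2, Trim25 and B2m lie above 5 CPM, while 19 genes stay under 1 CPM in every library.

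Ifit2 gave the largest called change of the set. It encodes a tetratricopeptide protein of the IFIT family, which binds foreign RNA and restrains its translation. Ifit2 (ENSMUSG00000045932, GRCm39 chromosome 19, 34528094 to 34553819, plus strand) stood at 22.4, 22.8 and 22.8 CPM in the OGD/R libraries and at 15.3, 14.7 and 15.0 CPM with phillyrin. The 3 phillyrin libraries were all below the 3 OGD/R libraries. The spread within each group was less than counting error alone would give, so it understates the uncertainty. The means were 22.7 ± 0.197 and 15.0 ± 0.309 CPM (SD, n = 3 each), and the difference was -0.60 on the log2 scale (SE 0.09, edgeR adjusted p = 1.18e-06). On the linear scale that is 0.661 times the OGD/R level, with a 95% interval from the SE of 0.587 to 0.745. Across every alternative run, the log2 fold change of Ifit2 stayed between -0.64 and -0.58 and its adjusted p between 9.10e-09 and 5.14e-05. By size of the log2 fold change it was number 250 among the 1823 genes called lower.

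The other Ifit genes of the cluster, all on one side of Ifit2, were almost silent. On its other side Lipa, which encodes lysosomal acid lipase, had 506 to 762 counts per library and was not called. Ifit3 starts 32.8 kb and Ifit1 90.2 kb further along the same strand. Ifit3, an adaptor that binds other IFIT proteins, had 4, 4 and 2 counts in OGD/R and 4, 2 and 0 with phillyrin. Ifit1, which recognises capped RNA that lacks methylation on the ribose of its first nucleotide, had 0, 3 and 4 counts in OGD/R and 7, 4 and 4 with phillyrin. The groups overlapped for both genes, and neither was abundant enough to be tested. Ifit1bl1, Ifit3b and Ifit1bl2, which lie between them, had 0, 1 and 1 counts over all 6 libraries. Per length, the mean FPKM of Ifit2 was 59.6 times that of Ifit3 and 63.0 times that of Ifit1. Of 1646 stretches of 100 bases in Ifit3 transcripts 521 also occur in Ifit3b, so a share of its few reads could belong to either copy. None of the 3925 stretches of Ifit2 occurs in another gene of the transcript set searched.

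**Figure D2:**
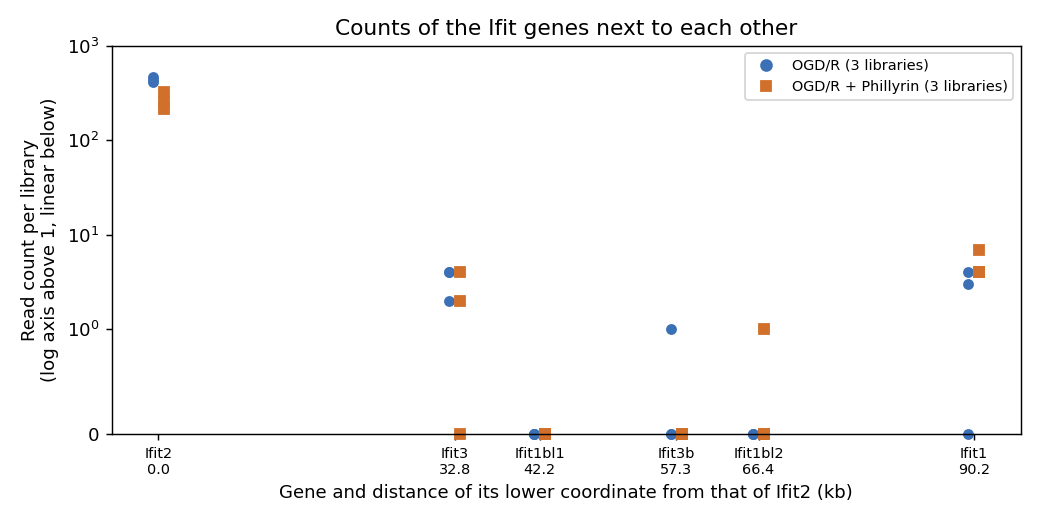
Read count of the 6 Ifit genes in each library against the distance of each gene's lower coordinate from that of Ifit2 in kb; the count axis is logarithmic above 1 and linear below, blue circles are OGD/R and orange squares OGD/R + Phillyrin libraries. Ifit2 has between 215 and 472 counts in every library, and no other gene of the cluster has more than 7.

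Promoter windows from RefSeq (build GRCm38.p6, 250 bases before to 50 after a start) were at hand for 31 of the 39 genes. They were searched on both strands for the ISRE core GAAANNGAAA and for the GAS core TTCNNNGAA, which reads the same on both strands. The ISRE core occurred in the windows of 14 of the 31 genes, or 45.2%, and in 3.44% of all 32851 windows. The GAS core occurred in 9 of the 31, or 29.0%, and in 8.30% of all windows. The shares of the 31 are per gene, with any window counting, and those of all windows are per window. The 31 genes have 35 windows, of which 14 held the ISRE core and 9 the GAS core. These letters are a description and not evidence of binding, and matches of both cores can lie in the same window. Ifit1, Ifit3, Isg15, Stat2 and B2m each carry ISRE cores in the window. They are printed because Ifit1, Ifit3 and Isg15 were near the detection limit while Stat2 and B2m were present. Neither window of Ifit2 holds those letters, and one holds a GAS core. This does not set Ifit2 apart, since the window of Ifnar2 holds a GAS core of the same letters and no ISRE core. Only exact matches were counted, and the bases between the windows of Ifit2 were not searched. An ISRE with other letters or outside the windows would be missed. Each stretch has 60 bases, lies upstream of the start, overlaps no exon of the GENCODE M21 annotation and is written 5′ to 3′ on the strand of the gene, with the core matches in capitals (3 that overlap in Isg15). A further core of Ifit3, at 34583373 to 34583382, ends on the first base of its stretch and is not capitalised there.
Ifit1, chr19:34640779-34640838, plus strand: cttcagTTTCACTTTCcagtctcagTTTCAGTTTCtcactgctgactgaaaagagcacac
Ifit3, chr19:34583382-34583441, plus strand: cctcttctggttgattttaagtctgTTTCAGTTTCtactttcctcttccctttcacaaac
Isg15, chr4:156200850-156200909, minus strand: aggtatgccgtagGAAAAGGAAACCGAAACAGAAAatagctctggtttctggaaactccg
Stat2, chr10:128270251-128270310, plus strand: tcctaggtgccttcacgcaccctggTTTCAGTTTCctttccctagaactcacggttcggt
B2m, chr2:122147523-122147582, plus strand: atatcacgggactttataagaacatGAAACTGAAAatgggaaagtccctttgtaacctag
Ifit2, chr19:34550444-34550503, plus strand, GAS core: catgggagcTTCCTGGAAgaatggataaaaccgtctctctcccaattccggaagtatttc

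Levels were also counted by presence of the ISRE core. Of the 14 genes with the core 7 stayed under 1 CPM in every library, and of the 17 genes without it 5 did. Of the 14, 8 were tested and 0 were called by edgeR or by DESeq2, with 1, Irf2, at an unadjusted p under 0.05. DESeq2 gave no adjusted p for Ifih1, 1 of the 8, and could not call it. Of the 17, 14 were tested, with Ifnar2 called higher and Ifit2 lower. Of all genes tested 31.7% were called, with 35.6% at a mean of at least 5 CPM and 12.2% below it. Bst2, Gbp2, Ifih1 and Isg15, which have the core, lay below 5 CPM. The counts by core were not compared at like level. The count of 0 was not stable, since Irf2, Eif2ak2 and B2m, which have the core, were called in some of the alternatives.

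All 4 receptor chains were present, and 1 of them changed. Ifnar2 (ENSMUSG00000022971, chromosome 16, 91169671 to 91202477), the chain that binds type I interferon most tightly, stood at 18.1, 15.8 and 15.4 CPM in OGD/R and at 19.8, 21.2 and 18.8 CPM with phillyrin. The groups did not overlap, although OGD/R replicate 1 came close to the lowest phillyrin library. The means were 16.4 ± 1.48 and 19.9 ± 1.24 CPM (SD, n = 3 each), and the difference was 0.29 on the log2 scale (SE 0.09, edgeR adjusted p = 0.0159). Over all alternatives its adjusted p lay between 0.00874 and 0.0887. Ifnar2 no longer passed when OGD/R replicate 2 was left out (edgeR adjusted p = 0.0769), nor in the absence of OGD/R replicate 3 (0.0866) or of phillyrin replicate 2 (0.0887). A predicted gene, Gm21970, overlaps Ifnar2 on the same strand and had 0 counts.

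Ifnar1, the partner chain, had more reads than Ifnar2 and was not called. Its 3 OGD/R libraries stood at 80.2, 83.2 and 78.7 CPM and its phillyrin libraries at 69.4, 76.0 and 78.9 CPM, so the groups overlapped. The log2 fold change was -0.11 (SE 0.05, edgeR adjusted p = 0.110), and Ifnar1 passed the threshold without phillyrin replicate 3 (edgeR adjusted p = 0.0445) and when only library size was used for scaling (0.0237). Its adjusted p over all alternatives reached from 0.0237 to 0.497. The difference between the responses of both chains was not tested. Ifngr1, the chain that binds interferon gamma, stood at 54.5, 54.3 and 49.8 CPM in OGD/R and 52.5, 58.2 and 60.2 CPM with phillyrin. Ifngr2, its signalling partner, stood at 35.3, 33.7 and 34.8 CPM in OGD/R and 32.7, 34.7 and 39.2 CPM with phillyrin. Both gamma receptor chains overlapped between the groups, with log2 fold changes of 0.11 (SE 0.06) and 0.03 (SE 0.07). Ifngr1 passed without phillyrin replicate 1 (edgeR adjusted p = 0.0403, range over all alternatives 0.0403 to 0.531). Per length, the order in OGD/R was Ifngr1 at 18.8 ± 0.973 FPKM, Ifnar1 at 13.8 ± 0.391, Ifngr2 at 9.32 ± 0.236 and Ifnar2 at 5.01 ± 0.463 FPKM (SD, n = 3 each), with no overlap between neighbours.

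Stat2 and 4 of the 5 IRFs of the set were well covered, Irf7 was scarce, and none of these 6 genes passed the test. Stat2, a transducer of the type I response, stood at 15.8, 13.6 and 15.2 CPM in OGD/R and 13.4, 14.4 and 12.0 CPM with phillyrin. Irf9, which brings that complex to the ISRE, stood at 11.2, 10.3 and 10.8 CPM in OGD/R and 10.5, 7.72 and 11.2 CPM with phillyrin. Both overlapped between the groups, at 0.901 (95% interval 0.782 to 1.04) and 0.898 (0.756 to 1.07) times the OGD/R level. Rnf31 overlaps Irf9 over 123 bases on the same strand.

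Irf1, an activator induced by interferon gamma, stood at 15.7, 16.1 and 15.8 CPM in OGD/R and 14.9, 15.6 and 15.1 CPM with phillyrin. Its spread within each group was also less than counting error alone would give. The 3 phillyrin libraries were all lower, but by little, and the log2 fold change was -0.06 (SE 0.09, edgeR adjusted p = 0.666). Irf2, which competes with IRF1 for the same sites, stood at 25.8, 30.3 and 29.1 CPM in OGD/R and 30.8, 30.9 and 36.7 CPM with phillyrin. Its groups did not overlap, and its log2 fold change of 0.20 (SE 0.08) missed the threshold at an edgeR adjusted p of 0.0502. Irf2 was called with RLE factors (edgeR adjusted p = 0.0410), without a low-count filter (0.0325) and on omission of OGD/R replicate 2 (0.0443) or of phillyrin replicate 1 (0.0286) or 2 (0.0335). Over all alternatives its log2 fold change lay between 0.12 and 0.25 and its adjusted p between 0.0286 and 0.274.

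Irf3, the factor that nucleic acid sensors activate, stood at 23.2, 19.0 and 20.6 CPM in OGD/R and 17.9, 19.5 and 18.1 CPM with phillyrin. The groups overlapped (log2 fold change -0.17, SE 0.09, edgeR adjusted p = 0.142). Bcl2l12 overlaps Irf3 on the other strand over 1065 bases, and reads of both genes cannot be told apart there, since the strand setting is not known. Irf7, the factor that amplifies type I interferon output, was scarce, with 10, 5 and 7 counts in OGD/R and 10, 12 and 12 with phillyrin. In CPM its groups did not overlap, and its log2 fold change of 0.75 carried an SE of 0.50 (edgeR adjusted p = 0.262). Irf7 passed the low-count filter through the phillyrin libraries and OGD/R replicate 1. Phrf1, with 9875 counts over all libraries, overlaps 45 bases of Irf7 on the other strand.

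**Figure D3:**
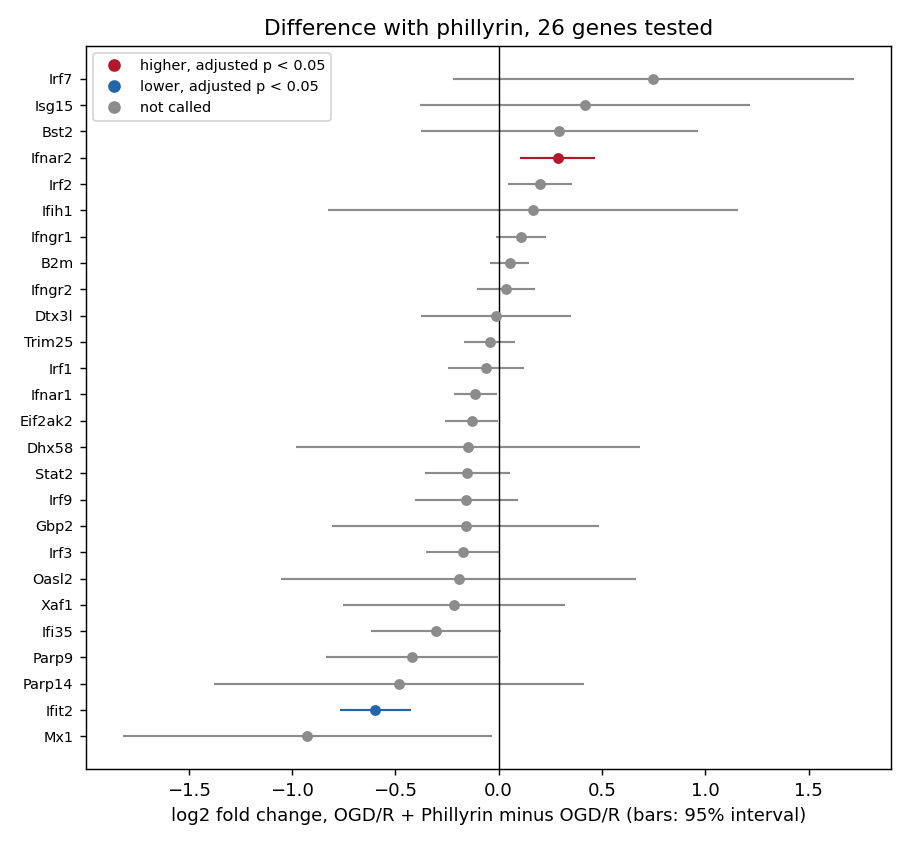
Log2 fold change of the 26 tested genes, OGD/R + Phillyrin minus OGD/R, with bars of 95% from the SE; red is called higher, blue called lower and grey not called. Ifit2 (-0.60) and Ifnar2 (0.29) are the coloured points, and the widest bars belong to genes of low count such as Irf7, Ifih1 and Mx1.

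The ISG15 system was close to the detection limit. Isg15, a ubiquitin-like protein that is joined to other proteins after interferon, had 11, 11 and 20 counts in OGD/R and 12, 17 and 22 with phillyrin. Usp18, which removes ISG15 and shuts down signalling at IFNAR2, had 0, 3 and 2 counts in OGD/R and 0 in all 3 phillyrin libraries. The libraries of both groups overlapped, and only Isg15 was tested (log2 fold change 0.42, SE 0.41, edgeR adjusted p = 0.470). Enzymes that attach ISG15, which are not members of the set and were looked up after their values had been seen, were also scarce or moderate. Uba7, the activating enzyme, fell from 10, 15 and 16 counts to 5, 6 and 1 (log2 fold change -1.62, SE 0.55, edgeR adjusted p = 0.0214). Uba7 passed the low-count filter only through the OGD/R libraries, so the filter itself favoured a fall. Herc6, the ligase in mice, fell from 3.14 ± 0.515 to 1.86 ± 0.189 CPM (SD, n = 3 each, edgeR adjusted p = 0.0154). Ube2l6, the conjugating enzyme, stood at 10.5 ± 1.06 and 9.56 ± 0.970 CPM (SD, n = 3 each) and was not called.

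The 3 genes of the oligoadenylate synthetase family, whose active enzymes make the signal that switches on RNase L, stayed under 1 CPM in every library. Oas1a had 1 count over all libraries, in OGD/R replicate 3, and 730 of the 1786 stretches of 100 bases in its transcripts also occur in Oas1g. Oas2 had 0 counts in every library. Oasl2, a synthetase-like protein, had 11, 17 and 11 counts in OGD/R and 12, 10 and 9 with phillyrin, with overlapping groups (log2 fold change -0.19, SE 0.44). By contrast Eif2ak2, the kinase PKR that halts translation on double-stranded RNA, was abundant. It stood at 51.3, 60.4 and 57.9 CPM in OGD/R and at 54.6, 47.3 and 53.6 CPM with phillyrin. The groups overlapped (log2 fold change -0.13, SE 0.07, edgeR adjusted p = 0.126), and Eif2ak2 passed without OGD/R replicate 1 (edgeR adjusted p = 0.0342, range over all alternatives 0.0342 to 0.577).

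The cytosolic RNA sensors of the set were scarce as well. Ifih1, the sensor MDA5 of long double-stranded RNA, had 10, 12 and 5 counts in OGD/R and 5, 16 and 7 with phillyrin. Dhx58, the related helicase LGP2, had 8, 19 and 19 counts in OGD/R and 17, 15 and 6 with phillyrin. Neither was called, with log2 fold changes of 0.17 (SE 0.51) and -0.15 (SE 0.42). Ddx60, a helicase tied to these sensors, was seen with 8 counts in a single library, phillyrin replicate 1.

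Antiviral effectors were mostly low, and their groups overlapped for all but Mx1. Mx1, a dynamin-like GTPase that blocks influenza viruses, had 18, 13 and 15 counts in OGD/R and 7, 8 and 7 with phillyrin. All phillyrin libraries were lower, at 0.526 times the OGD/R level (95% interval 0.284 to 0.977), and the gene was not called (edgeR adjusted p = 0.120, unadjusted p = 0.0491). Mx1 passed the low-count filter only through the OGD/R libraries, so the filter itself favoured a lower value with phillyrin. Of 4415 stretches in Mx1 transcripts 41 occur in Mx2. Mx2 had 1 or 2 counts in each OGD/R library and 2, 0 and 4 with phillyrin. Rsad2 (viperin), which makes a chain-terminating nucleotide, had 11, 9 and 2 counts in OGD/R and 14, 6 and 1 with phillyrin, and Cmpk2, a mitochondrial nucleotide kinase, 4, 2 and 4 against 1, 3 and 2. Ifi44 was seen in OGD/R replicate 1 (2 counts) and phillyrin replicate 2 (3 counts). Rtp4, a receptor transporter, had 6, 11 and 6 counts in OGD/R and 14, 15 and 5 with phillyrin, and Masp1, with 5969 counts, overlaps 525 bases of it on the other strand. None of these 5 genes from Mx2 to Rtp4 was abundant enough to be tested.

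Bst2 (tetherin), which holds budding virus at the cell surface, stood at 0.757, 1.59 and 0.947 CPM in OGD/R and 0.936, 1.60 and 1.53 CPM with phillyrin. Ifi35, a leucine zipper protein, stood at 6.49, 6.80 and 7.10 CPM in OGD/R and 6.84, 5.44 and 4.10 CPM with phillyrin. Phillyrin replicate 1 lay within the range of the OGD/R libraries for Ifi35 and the other phillyrin libraries below it. The log2 fold change was -0.30 (SE 0.16, edgeR adjusted p = 0.149), and Ifi35 was called lower without phillyrin replicate 1 (edgeR adjusted p = 0.0340, range over all alternatives 0.0340 to 0.521). Xaf1, an antagonist of the caspase inhibitor XIAP, stood at 2.60, 1.69 and 3.05 CPM in OGD/R and 1.58, 1.74 and 3.13 CPM with phillyrin, with no call.

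Parp9 and Dtx3l encode partners that modify histones and viral proteins with ADP-ribose and ubiquitin, and they are transcribed away from each other with an overlap of 682 bases. Parp9 stood at 3.68, 5.31 and 4.05 CPM in OGD/R and 3.33, 2.33 and 4.38 CPM with phillyrin, and Dtx3l at 4.81, 3.47 and 5.42 CPM and 5.03, 3.88 and 4.73 CPM. The groups overlapped for both, with log2 fold changes of -0.42 (SE 0.21) and -0.01 (SE 0.19). Parp9 was called lower without phillyrin replicate 3 (edgeR adjusted p = 0.0306, range over all alternatives 0.0306 to 0.579). Parp14, a related ADP-ribosyl transferase, had 16, 12 and 19 counts in OGD/R and 16, 13 and 2 with phillyrin, so that 1 phillyrin library stood apart. Trim25, the ubiquitin ligase that activates the sensor RIG-I, was abundant and steady, at 43.3, 48.7 and 45.8 CPM in OGD/R and 45.2, 44.3 and 44.5 CPM with phillyrin. Its level with phillyrin was 0.971 times that in OGD/R (95% interval 0.892 to 1.06).

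Guanylate-binding proteins, GTPases that attack the membranes around microbes, were low. Gbp2 stood at 2.27, 1.25 and 1.37 CPM in OGD/R and 2.11, 1.46 and 0.696 CPM with phillyrin (log2 fold change -0.16, SE 0.33). Gbp3 had 7, 16 and 5 counts in OGD/R and 9, 13 and 4 with phillyrin. Neither separated the groups.

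Antigen presentation showed a wide contrast in level. B2m, the light chain shared by all MHC class I molecules, was the most abundant gene of the set per length, at 217 ± 3.22 FPKM in OGD/R and 219 ± 19.4 FPKM with phillyrin (SD, n = 3 each). In CPM it stood at 182, 183 and 187 in OGD/R and at 193, 172 and 209 with phillyrin, which enclose the OGD/R values. The ratio was 1.04 (95% interval 0.973 to 1.11, edgeR adjusted p = 0.416). Without phillyrin replicate 2 B2m was called higher (log2 fold change 0.13, edgeR adjusted p = 0.0207, range over all alternatives 0.0207 to 0.937). Tap1, a subunit of the pump that loads peptides onto these molecules, had 3, 4 and 0 counts in OGD/R and 1, 4 and 0 with phillyrin. Psmb9, which overlaps Tap1 on the other strand, had 1 count in all.

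**Figure D4:**
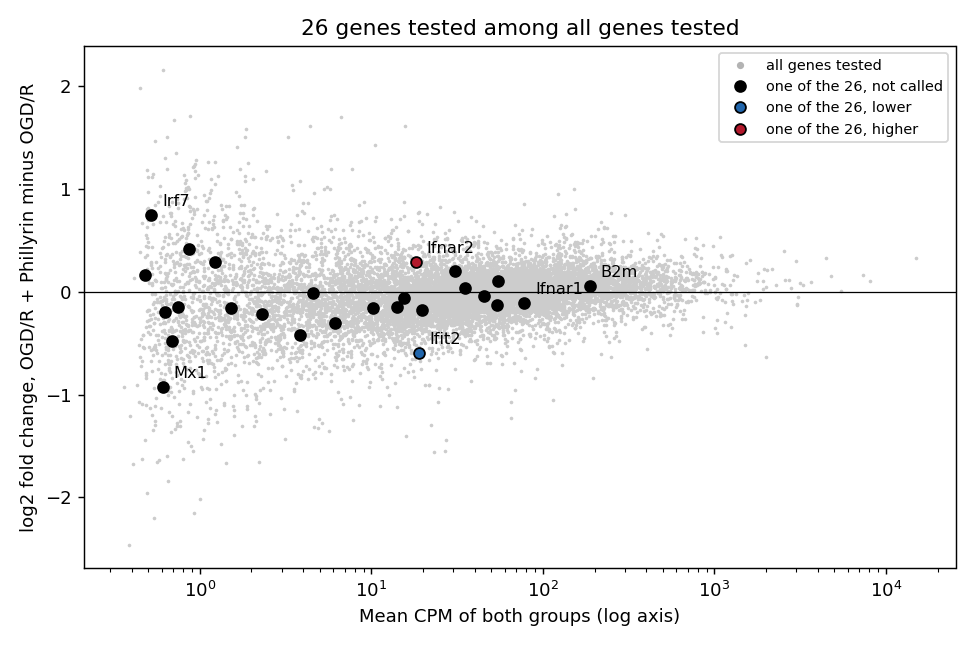
Log2 fold change (OGD/R + Phillyrin minus OGD/R) against mean CPM on a log axis, with all 11658 tested genes in grey and the 26 tested genes of the set as large points, blue for lower, red for higher and black for not called. The blue point is Ifit2 at -0.60 and the red point Ifnar2 at 0.29.

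Genes that act around the set were counted from lists of the same pathway, which were chosen with earlier results of these data known. Interferon ligands were nearly absent. Of 21 ligand genes 19 had no count in any library, including Ifnb1 and Ifng, which allows each up to 3 of the 111513800 counts. Ifne had 7 counts and Ifnz 3. Of 19 further receptor chains, Janus kinases, STATs and IRFs, 14 were tested, 1 rose and 2 fell, or 21.4% against 31.7% of all genes tested. Stat3, the main STAT of IL-6 signalling, rose from 89.5 ± 1.07 to 108 ± 6.28 CPM (SD, n = 3 each, edgeR adjusted p = 3.60e-05). Tyk2, the kinase on IFNAR1, stood at 24.4, 25.1 and 22.5 CPM in OGD/R and at 21.0, 17.0 and 20.0 CPM with phillyrin, with every phillyrin library lower (log2 fold change -0.32, SE 0.09, edgeR adjusted p = 0.00452). Stat5a fell from 14.2 ± 0.506 to 10.9 ± 0.606 CPM (SD, n = 3 each). Jak1, at 228 ± 4.72 and 230 ± 10.4 CPM, and Jak2, at 69.3 ± 4.54 and 67.1 ± 2.62 CPM (SD, n = 3 each), were not called. In this list 1 gene was lower once phillyrin replicate 2 was omitted, and 3 were lower on omission of OGD/R replicate 2 or of phillyrin replicate 1 or 3.

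Of 18 genes that restrain interferon signalling 3 rose and 3 fell, or 33.3% against 31.7% of all genes tested, and the median of their log2 fold changes was -0.01, as over all genes tested. Socs2 rose from 112 ± 3.17 to 160 ± 3.48 CPM, and Socs7 from 77.5 ± 4.52 to 92.6 ± 1.39 CPM (SD, n = 3 each), both suppressors of cytokine signalling. Ptpn11, the phosphatase SHP2, had a log2 fold change of 0.17 (SE 0.04). Pias3, which binds activated STAT3, fell from 43.9 ± 2.99 to 32.8 ± 0.742 CPM (SD, n = 3 each). Lower calls numbered 5 scaled by library size only.

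Of 27 genes of nucleic acid sensing, 22 were tested, 2 rose and 4 fell, or 27.3% against 31.7% of all genes tested. Ticam1, the adaptor TRIF of TLR3, fell from 15.6 ± 0.459 to 11.1 ± 1.21 CPM, and Tbk1, the kinase that activates IRF3, from 60.4 ± 1.12 to 52.0 ± 0.892 CPM (SD, n = 3 each). Cgas, the sensor of cytosolic DNA, rose from 12.0 ± 0.191 to 15.6 ± 1.95 CPM (SD, n = 3 each, edgeR adjusted p = 0.00442), and Rnaseh2c from 20.2 ± 1.96 to 24.2 ± 2.69 CPM (SD, n = 3 each). DESeq2 gave 2 lower calls, as did the omission of OGD/R replicate 2 or 3 or of phillyrin replicate 2 or 3. A single gene was called higher once phillyrin replicate 1 was left out, and likewise under library size only.

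A list of 84 other interferon-stimulated genes was counted beside the set. Of its 46 tested genes 21 fell and 2 rose, which is 45.7% lower against 15.6% of all genes tested. The list was chosen with earlier results of these data known, so these shares are a description and not a test. At least Uba7 among the 21 passed the low-count filter only through the OGD/R libraries. The median log2 fold change over the 46 was -0.22, and over all genes tested -0.01. Mov10, an RNA helicase that restrains retroelements, fell from 16.2 ± 0.632 to 8.41 ± 1.35 CPM (log2 fold change -0.93, SE 0.11, edgeR adjusted p = 4.82e-08). Ifitm1 and Ifitm3, membrane proteins that hinder virus entry, also fell. Ifitm1 had means of 50.1 ± 4.21 CPM without and 32.4 ± 4.35 CPM with phillyrin, and Ifitm3 at 174 ± 2.53 and 142 ± 10.2 CPM (SD, n = 3 each). The cytidine deaminase gene Apobec3 fell from 38.6 ± 1.63 to 29.1 ± 1.66 CPM. The genes that rose, Zc3hav1 and Trim56, were chosen for mention after their values were seen, at log2 fold changes of 0.14 (SE 0.04) and 0.13 (SE 0.05). Several families in this list hold near-identical copies (Ifitm, Slfn, Ifi200, Irgm), and which copy gave a read is uncertain for them. The difference between this list and the 39 genes was not tested. Leaving out OGD/R replicate 2, OGD/R replicate 3 or phillyrin replicate 2 brought the lower calls to 13 each, and leaving out phillyrin replicate 3 brought them to 14. Over all settings run they lay between 13 and 22, and higher calls between 1 and 2, with 1 scaled by library size only and 1 without any single OGD/R library.

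**Figure D5:**
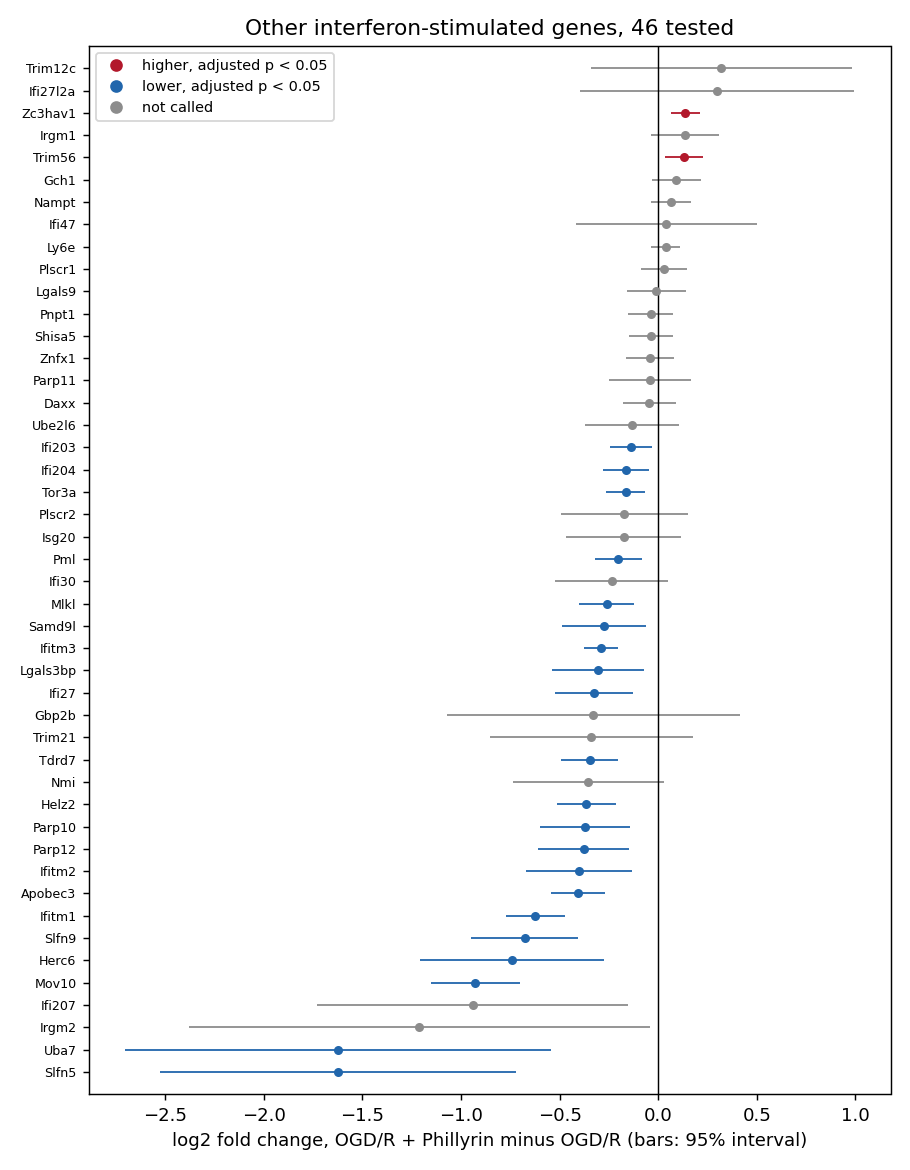
Log2 fold change of the 46 tested genes on the list of other interferon-stimulated genes, OGD/R + Phillyrin minus OGD/R, with bars of 95% from the SE; blue is called lower, red called higher and grey not called. The 21 blue points spread from Ifi203 (-0.14) to Slfn5 (-1.62), and the 2 red points, Zc3hav1 and Trim56, lie just above 0.

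Among 23 further genes of MHC class I and the immunoproteasome, 18 were tested, 1 rose and 3 fell, or 22.2% against 31.7% of all genes tested. Psmb10, an inducible proteasome subunit, fell from 5.77 ± 1.37 to 3.60 ± 0.542 CPM. Psme1, part of a proteasome activator, had means of 32.8 ± 2.64 and 28.1 ± 2.44 CPM, and H2-D1, a class I heavy chain whose reads may belong to close relatives, at 11.2 ± 0.246 and 8.85 ± 0.763 CPM (SD, n = 3 each). Canx, which encodes the folding chaperone calnexin, went from a mean of 734 ± 11.9 to one of 793 ± 1.69 CPM. DESeq2 gave 1 lower call, as did the omission of OGD/R replicate 2 or 3 or of phillyrin replicate 1. No gene of this list rose once OGD/R replicate 1 or 3 was omitted, or under library size only.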

How the data were processed

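Libraries of mRNA captured by poly-T were read in pairs of 150 bases, per the labels' protocols. The submitters' processing notes name Trimmomatic 0.39, HISAT2 2.2.1, featureCounts 2.0.3, DESeq2 1.34.0 and the build GRCm39, without their roles. For the annotation release, the strand setting and reads with several alignments, nothing is given in the sources used here. Per the file headers, the deposited table gives each gene a raw read count in every library and the matching FPKM. The FPKM values deposited by the authors equal the count over gene length and library total to within a relative difference of 5.02e-06. Sample titles decided which column belongs to which library, since the descriptions of all 3 phillyrin libraries point to 1 column. Rows without a symbol held no more than 0.00743% of the counts in any library.

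Counts were filtered with filterByExpr by group, scaled by TMM and fitted in edgeR 4.0.16 (limma 3.58.1, R 4.3.3) for its quasi-likelihood test, robust and two-sided, with Benjamini-Hochberg adjustment over 11658 genes and a threshold of 0.05. The SE is the log2 fold change over the root of the F statistic, and intervals use 1.96 SE. An exact permutation test of 3 against 3 libraries cannot go below 0.1. Whether the 3 libraries of a group are separate cultures is not stated, so the spread behind each p-value may be technical. Some SDs of 3 libraries fell below counting error, as for Ifit2, Irf1 and, with phillyrin, Trim25. Such an SD understates the uncertainty. Both groups carry 1 batch label. The fit was tested on simulated data.

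The set, its roles and the pathway and marker lists were chosen with earlier results of these data known. By rule, each of the 39 genes is given, and from each list at most 4 called genes of smallest p, with Jak1, Jak2, Tyk2 and Ifnb1. One gene that the rule names is not reported here. Uba7, Herc6, Ube2l6, Zc3hav1, Trim56, Lipa and the ends of the plotted list were named outside the rule, after their values were seen. Shared stretches of 100 bases were searched in GENCODE M21 transcripts. Coordinates of genes are those of the table, and those of promoters GRCm38.p6. Other settings tried were omission of each library, the replicate number as a block, RLE factors or library size only in place of TMM, a mean of at least 1 CPM or no filter in place of filterByExpr, and DESeq2 1.42.0 and limma-voom in place of edgeR.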

Additional observations from a re-analysis of the deposited data

How the results depend on the processing

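Of the genes in the set called higher (1), the count was 2 with RLE factors, 2 with no low-count filter and 2 with the replicate block, where Irf2 joined Ifnar2 (edgeR adjusted p = 0.0372 with the block), and 0 to 3 when each library was left out in turn. Genes called lower (1) numbered 3 with library size only and 1 to 3 when each library was left out. Over all genes no alternative moved the counts of calls by more than 1.5 times: the replicate block gave 1867 higher and 1842 lower. Libraries with the same replicate number did not deviate together (correlations of 0.003 to 0.006 over genes), so the numbers were not taken to pair the libraries.

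Signs were followed for the 26 tested genes of the set: Ifit2 and Ifnar2 kept theirs in every alternative run. Among the other 24, the log2 fold change of Ifngr2 was -0.00908 with library size only and that of Dtx3l 0.00854 with the replicate block. When each library was left out, signs turned for Ifngr2 (-0.0303 to 0.0961), Irf9 (-0.253 to 0.0124), Oasl2 (-0.331 to 0.000405), Ifih1 (-0.267 to 0.444), Dhx58 (-0.445 to 0.0714), Dtx3l (-0.182 to 0.130), Trim25 (-0.0825 to 0.00340), Gbp2 (-0.502 to 0.145) and B2m (-0.00596 to 0.133). The cause was not tested. DESeq2 gave no adjusted p for 4 of the 26 genes, and a mean of at least 1 CPM left 19 of them to test.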
